A study of Mus musculus with 12 samples.

Results

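The mRNAs of 9 nuclear receptors that govern liver metabolism were followed over the day in mouse liver: *Nr1i3*, *Nr1i2*, *Rxra*, *Nr1h3*, *Hnf4a*, *Nr5a2*, *Esrra*, *Thrb* and *Nr2f2*. They were chosen by gene symbol, with earlier results of these data known, and are 9 of the 20069 genes of the RNA-Seq table. All 9 were among the 10198 expressed genes, those with a value above 8 reads per base pair (rpbp) in at least 1 sample. The samples came from wild-type male mice of strain C57BL/6, adult at 3 to 6 months, kept in 12 hr of light and 12 hr of darkness for at least 2 weeks. Livers were taken at Zeitgeber times ZT2, ZT6, ZT10, ZT14, ZT18 and ZT22 (hours after lights on), with 2 samples per time point, replicate 1 and replicate 2, for 12 samples in all. All groups share genotype, tissue and light cycle, and differ in time of day. The signal is a mean coverage per exon base, so that levels of different genes can be set side by side, and it is given here on a scale of 40000000 uniquely mapped sequences per sample.

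Nuclear receptors are transcription factors with a DNA-binding domain and a pocket for a small lipid-soluble ligand. Many bind DNA as a pair with the retinoid X receptor RXRα, the product of *Rxra*. CAR (*Nr1i3*) and PXR (*Nr1i2*) sense drugs and foreign compounds and turn on detoxification enzymes and transporters, LXRα (*Nr1h3*) senses oxysterols, and the thyroid hormone receptor TRβ (*Thrb*) mediates the action of thyroid hormone on liver lipids. HNF4α (*Hnf4a*) maintains the identity of the hepatocyte, LRH-1 (*Nr5a2*) acts on bile acid and cholesterol genes, ERRα (*Esrra*) acts on genes of mitochondrial respiration, and COUP-TFII (*Nr2f2*) often represses and is prominent in vascular and stromal cells. In whole liver, fewer cells of a type and less RNA per cell cannot be told apart.

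Of the 9 mRNAs, 4 were rhythmic: *Nr1i3*, *Nr1i2*, *Esrra* and *Nr2f2*. Their upstream sequences are shown because these are the members called rhythmic. Each is the 250 bases before a start site in RefSeq (GRCm38.p6), on the gene's strand from 5′ to 3′, and its place in mm9 comes from an exact match to that genome. Capitals mark CACGTG, the E-box bound by CLK:BMAL1. The windows lie at chr1:173143851-173144100 on the plus strand for *Nr1i3*, chr16:38294911-38295160 on the minus strand for *Nr1i2*, chr19:6996299-6996548 on the minus strand for *Esrra* and chr7:77511633-77511882 on the minus strand for *Nr2f2*.
Nr1i3: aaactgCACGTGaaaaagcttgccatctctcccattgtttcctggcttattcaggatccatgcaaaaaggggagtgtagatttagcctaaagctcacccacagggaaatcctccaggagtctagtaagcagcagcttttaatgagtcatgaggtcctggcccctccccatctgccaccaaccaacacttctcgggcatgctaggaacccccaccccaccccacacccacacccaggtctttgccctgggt
Nr1i2: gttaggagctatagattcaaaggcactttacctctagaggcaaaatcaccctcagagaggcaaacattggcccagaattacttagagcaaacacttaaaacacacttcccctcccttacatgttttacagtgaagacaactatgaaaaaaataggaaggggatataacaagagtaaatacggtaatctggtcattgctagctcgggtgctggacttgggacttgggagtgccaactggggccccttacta
Esrra: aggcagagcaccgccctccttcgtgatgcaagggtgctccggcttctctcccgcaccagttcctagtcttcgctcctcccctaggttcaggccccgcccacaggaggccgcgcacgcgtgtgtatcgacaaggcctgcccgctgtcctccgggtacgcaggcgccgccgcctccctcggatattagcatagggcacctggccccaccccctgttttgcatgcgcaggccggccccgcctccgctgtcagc
Nr2f2: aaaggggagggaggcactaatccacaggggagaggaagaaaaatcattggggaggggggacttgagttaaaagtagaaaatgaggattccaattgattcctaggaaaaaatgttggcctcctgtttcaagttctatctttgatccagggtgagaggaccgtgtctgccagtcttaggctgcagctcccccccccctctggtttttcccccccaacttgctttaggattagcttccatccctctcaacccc

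A total of 4 motifs were searched on both strands in the 14 windows of the 9 genes, and no match of one motif overlapped a match of another. The windows of *Nr1h3* share part of their sequence. The E-box CACGTG was found in 1 window of *Nr1i3*, 244 bases before the start, and in 1 window of *Thrb*, 193 bases before the start. That window lies at chr14:18813908-18814157 on the plus strand. It is present in 6.02% of all 32851 RefSeq windows of that length. The D-box TTANGTAA, bound by DBP and its relatives and present in 2.06% of the windows, was found in none of the 14. The half-site AGGTCA, shared by many nuclear receptors and present in 14% of the windows, was found in 1 window each of *Rxra*, *Nr5a2* and *Thrb*. The HNF4α site CAAAGTCCA, present in 0.384% of the windows, was found in none of the 14. *Thrb*, with an E-box, was not called rhythmic, and *Nr1i2*, *Esrra* and *Nr2f2* were called with none of the 4 motifs in this window. A match describes letters and not binding.

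The samples taken at ZT2 stood apart from the others. Their mean correlation across genes with the samples of other time points was 0.941 and 0.944, whereas it lay between 0.956 and 0.966 for the other 10 samples. Between the samples of a time point the correlation was 0.975 to 0.987. The step from ZT2 to ZT6 called 1942 genes in limma, compared with 4 to 171 for the other 5 steps. The rhythm calls and F-tests of the members are therefore also given without both ZT2 samples, an alternative chosen after seeing the data. The total signal per sample, between 1487000 and 1546000 rpbp summed over genes, differed little. Of the 12 clock genes used as a reference, 11 were rhythmic (19.0% of all expressed genes), and 10 without both ZT2 samples (15.1% of all). No label says that samples with the same replicate number share a litter or day, and p-values measure the spread between these samples.

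Hepatocyte markers dominated the tissue, with a summed level of 10 markers between 126050 and 186030 rpbp. The sum was 126050 and 129740 rpbp at ZT2, below the 147910 rpbp or more of the other 10 samples. The low sum at ZT2 rests on *Alb*, the most abundant marker, which was at 51790 rpbp at ZT2 and 114500 rpbp at ZT14. The other 9 markers summed to 75607 and 76609 rpbp at ZT2, above the 50333 to 70720 rpbp of the other samples. That high sum rests on *Hpx*, hemopexin, with 17740 rpbp at ZT2 and 3739 rpbp at ZT6, and *Fgb*, a fibrinogen chain, with 14390 rpbp at ZT2 and 4025 rpbp at ZT10. The 7 markers left without these and *Alb* summed to 42973 and 44990 rpbp at ZT2, within the 42229 to 53695 rpbp of the other samples. Of the 10 markers, 6 had their lowest mean at ZT2, compared with 21.8% of all expressed genes. From ZT2 to ZT6 in limma, 3 rose (10.5% of all genes) and 3 fell (876 of all 10198). The summed level of 10 Kupffer cell markers was 881 and 904 rpbp at ZT2 and between 466 and 700.0 rpbp in the other samples. All 9 expressed markers of this list had their highest mean at ZT2, as did 2970 of all 10198 expressed genes. Of the 9, 2 fell from ZT2 to ZT6 in limma (876 of all genes). A limma F-test over the 6 time points called 0 of the 9 (17.6% of all). The 12 endothelial markers summed to between 312 and 368 rpbp, and the 11 stellate and fibroblast markers to between 225 and 289 rpbp. The 5 cholangiocyte markers summed to between 63.7 and 229 rpbp, the 3 red blood cell markers to between 353 and 1174 rpbp, and the 6 lymphocyte markers to between 4.24 and 13.8 rpbp. No marker was at 0 in all samples. The part of these differences in the results on the receptors was not tested.

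The members spanned a wide range of levels. *Hnf4a* was highest at 474 ± 37.2 rpbp (SD, n = 12), followed by *Rxra* at 278 ± 29.4, *Nr1i3* at 186 ± 74.0, *Nr1h3* at 125 ± 7.61 and *Nr1i2* at 80.8 ± 19.1. The place of *Nr1i3* is uncertain, since part of its exons is shared with another gene (values in its own paragraph). The bounds on its unshared exons contained the *Rxra* value in 8 of 12 samples, lay below it in 3 (both of ZT2 and replicate 2 of ZT22) and above it in 1 (replicate 2 of ZT10, with a lower bound of 286 rpbp and 267 rpbp of *Rxra*). *Nr5a2* had 41.15 ± 5.39 rpbp, *Nr2f2* 23.2 ± 5.16, *Esrra* 17.2 ± 2.46 and *Thrb* 16.2 ± 3.46. Even the lowest member was close to the median expressed gene, whose mean was 22.85 rpbp. Of the 8 pairs of neighbours in this order, 6 differed, on the deposited values, in an exact paired permutation test of the log2 ratio over the 12 samples (two-sided, adjusted over the 8 pairs). They include *Rxra* and *Nr1i3*, whose order the bounds leave uncertain. *Hnf4a* exceeded *Rxra* in 12 of 12 samples by 0.77 ± 0.19 (SD) on the log2 scale, with an adjusted p of 7.81e-04, from 4.88e-04, the smallest that 12 sign changes allow. *Nr1i3* and *Nr1h3* did not differ beyond their spread, with *Nr1i3* higher in 8 of 12 samples (adjusted p = 0.132, exact permutation test) and lower in both ZT2 and both ZT22 samples on the deposited values. By the bounds on its unshared exons *Nr1i3* was above *Nr1h3* in 9 samples, among them replicate 1 of ZT22 (147 rpbp or more, compared with 138 rpbp), below it in both ZT2 samples, and undecided in replicate 2 of ZT22. *Esrra* and *Thrb* did not either, with *Esrra* higher in 8 of 12 samples (adjusted p = 0.379, exact permutation test). *Hnf4a* made up 34.9% to 41.4% of the summed signal of the 9 genes in each sample, and *Rxra* 19.5% to 31.0%. The order was the same in each replicate series alone.

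**Figure D1:**
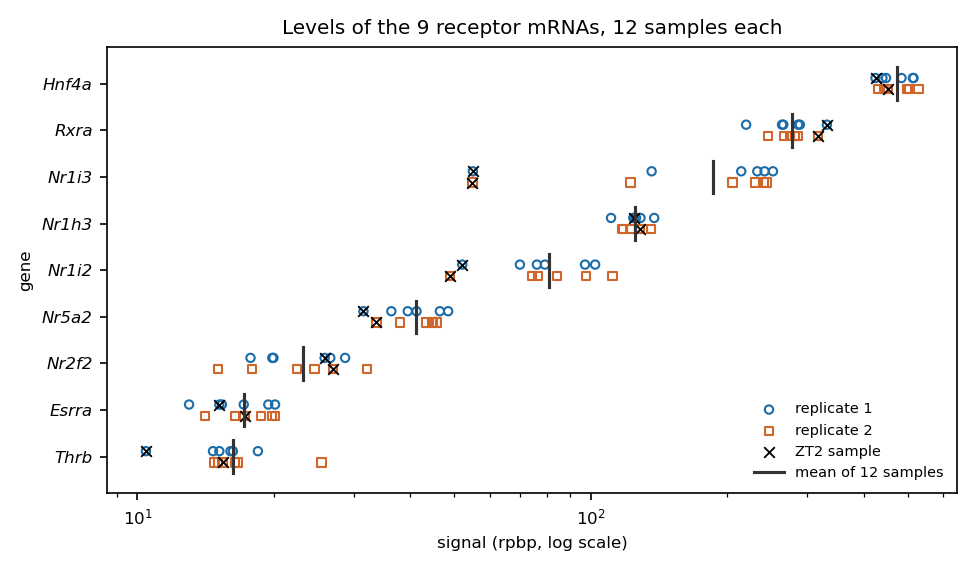
Signal of each receptor mRNA (rpbp, log axis) in the 12 samples, with genes in order of their mean. Open circles are replicate 1, open squares replicate 2, crosses mark the ZT2 samples and vertical bars the 12-sample means. *Nr1i3* spreads from 54.8 to 252 rpbp, whereas *Nr1h3* stays between 111 and 138 rpbp.

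To ask which receptor mRNAs followed a 24 hr rhythm, the share of the variance of the 12 values in the 24 hr Fourier component (F24) was computed, with a permutation p from 100000 random orders. The amplitude is the highest sample over the lowest. A rhythm was called where the p was under 0.05, where F24 exceeded 0.45 and where the amplitude was more than 1.5, with higher limits for F24 (0.6) and the amplitude for a strong rhythm. By this rule 4 of 9 members were rhythmic, compared with 19.0% of all expressed genes, and 3 of 9 were strongly rhythmic, compared with 7.89%. The members and gene lists were chosen with earlier results of these data known, so shares over all genes are given for scale and not as a test. With the Benjamini-Hochberg adjusted permutation p, 2 of 9 remained (*Nr1i3* and *Esrra*), compared with 5.02%. The median F24 of the 9 was 0.499 and the median amplitude 1.55, whereas over all expressed genes they were 0.310 and 1.63. A limma F-test for any difference between the 6 time points, on log2(rpbp + 1), called 4 of 9 members, the same 4 genes, compared with 17.6% of all. With both ZT2 samples left out, this test called *Nr1i3* (adjusted p = 0.0126, limma) and *Nr2f2* (0.0382), 2 of 9 members compared with 4.60% of all genes, whereas *Nr1i2* (0.0621) and *Esrra* (0.0803) missed the threshold.

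**Figure D2:**
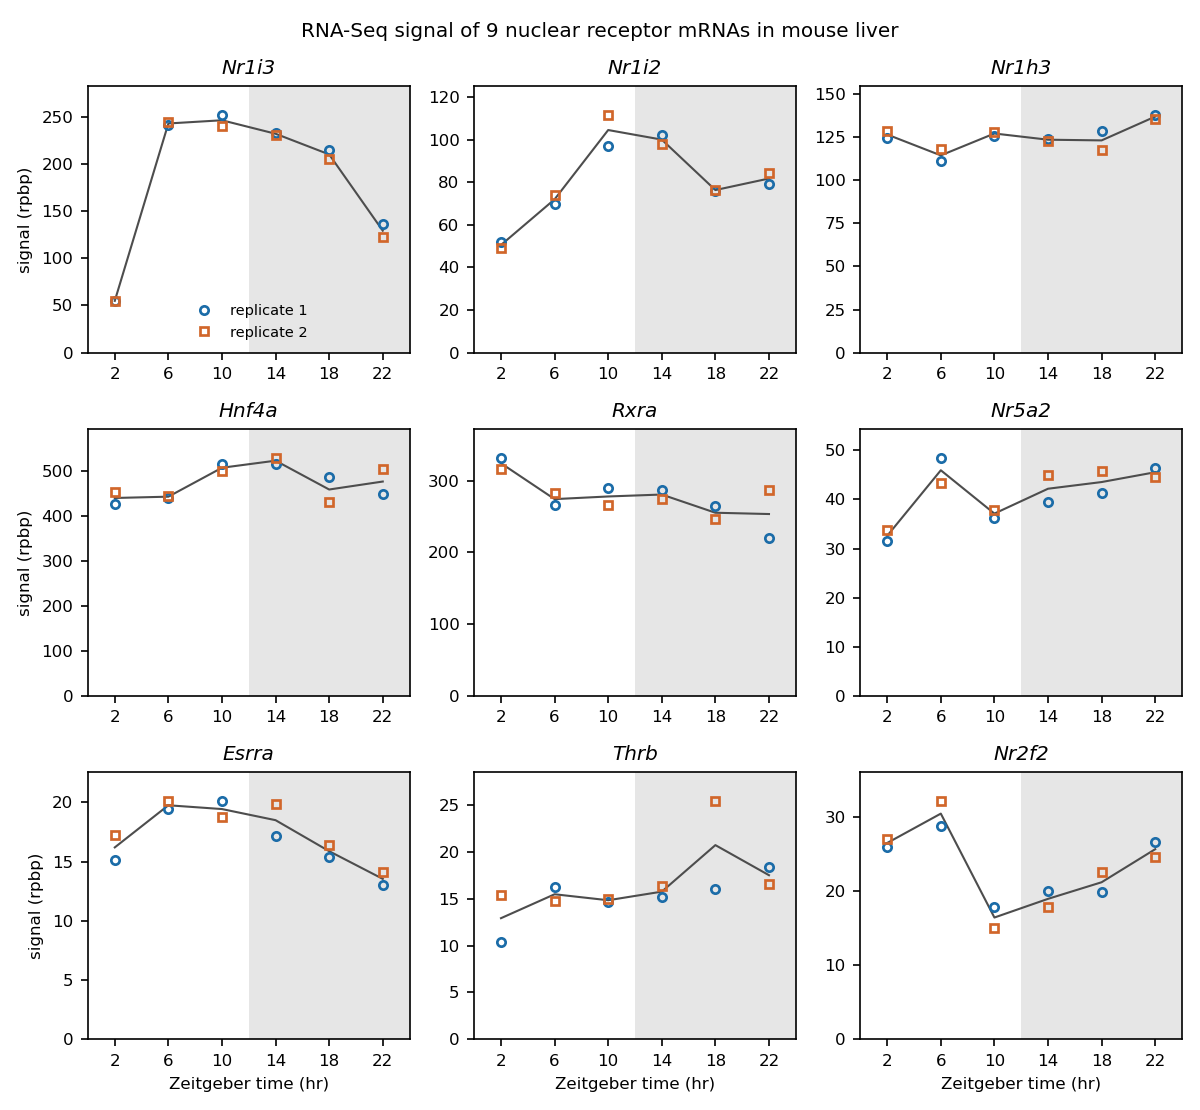
Signal (rpbp) of each receptor mRNA against Zeitgeber time (hr), with replicate 1 as circles, replicate 2 as squares and a line through the means of the 2 samples. Grey marks the dark phase, and each vertical axis starts at 0. *Nr1i3* rises between ZT2 (54.9 rpbp) and ZT6 (243 rpbp), and *Nr2f2* falls between ZT6 (30.4 rpbp) and ZT10 (16.4 rpbp).

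*Nr1i3* encodes CAR, and its mRNA (chr1:173144101-173150832, plus strand, mm9) showed the widest daily range of the 9. Replicate 1 had 55.0, 242, 252, 233, 215 and 136 rpbp from ZT2 to ZT22, and replicate 2 had 54.8, 244, 240.4, 231, 205 and 122 rpbp. Both ZT2 samples lay far below all others, both ZT22 samples came next, and the remaining 8 formed a plateau between 205 and 252 rpbp. The mean was 54.9 ± 0.0849 rpbp at ZT2 and 243 ± 1.56 rpbp at ZT6 (SD, n = 2), a rise of 4.43-fold or 2.13 ± 0.09 (SE) on the log2 scale (adjusted p = 7.62e-06, limma). It was 129 ± 9.87 rpbp at ZT22 and fell by 1.22 ± 0.09 on the log2 scale from ZT22 to ZT2 (adjusted p = 8.83e-04, limma). The fall between ZT18 and ZT22, with a difference of -0.70 ± 0.09, missed the threshold (adjusted p = 0.0545, limma). F24 was 0.719 (permutation p = 0.0027, adjusted p = 0.0483), with a phase of 12.0 hr and an amplitude of 4.60. The phases of the replicate series taken alone, 12.1 and 11.9 hr, were 0.202 hr apart. Without both ZT2 samples *Nr1i3* was still rhythmic on the deposited values, with F24 of 0.817 (permutation p = 0.00116), an amplitude of 2.06 and a phase of 10.6 hr.

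The last exons of *Nr1i3* overlap those of *Tomm40l* (chr1:173147933-173152645, minus strand), a gene for a mitochondrial import channel protein, in the GENCODE annotation of mm9. The overlap covers 2268 bases, or 51.4% of the 4414 exonic bases of *Nr1i3* and 67.8% of the 3344 of *Tomm40l*. The signal was summed without regard to strand, and within the shared bases the 2 genes cannot be told apart. *Tomm40l* had 40.4 and 38.8 rpbp at ZT2 and between 79.2 and 173 rpbp in the other samples, and the ratio of *Nr1i3* to *Tomm40l* was 1.54 ± 0.125 (SD, n = 12). The deposited values still bound the coverage of the 2146 exonic bases that *Tomm40l* does not share, if the exons are those of this annotation, because the shared coverage cannot exceed all that was counted for *Tomm40l*. The upper bound at ZT2 was 113 rpbp in both samples. The lower bound was 228 rpbp or more at ZT6 and ZT10, 204 rpbp or more at ZT14 and ZT18, and 147 and 128 rpbp at ZT22. The unshared exons of *Nr1i3* were thus lower at ZT2 than at each other time point, under that condition. The upper bounds at ZT22 were 280 and 252 rpbp, and 280 rpbp exceeds a lower bound at each of ZT6, ZT10, ZT14 and ZT18. For the unshared exons, the bounds therefore do not settle the rhythm called without both ZT2 samples, nor its phase.

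**Figure D3:**
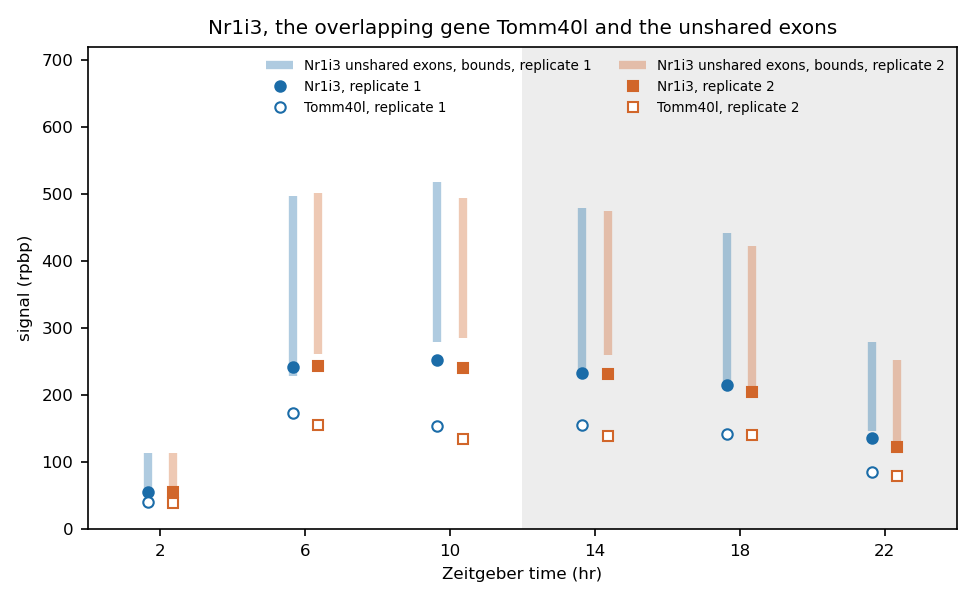
Signal (rpbp) of *Nr1i3* (filled symbols) and *Tomm40l* (open symbols) against Zeitgeber time (hr), blue for replicate 1 and orange for replicate 2, with vertical bars from the lower to the upper bound of the coverage of the *Nr1i3* exons that *Tomm40l* does not share. The bars at ZT2 end at 113 rpbp, below the start of every other bar.

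*Nr1i2* encodes PXR, the closest relative of CAR, and its mRNA (chr16:38248409-38294910, minus strand) peaked near the start of the night. Replicate 1 had 52.1, 69.8, 97.2, 102, 76.1 and 79.2 rpbp from ZT2 to ZT22, and replicate 2 had 49.0, 74.2, 112, 97.7, 76.6 and 84.2 rpbp. The ZT10 and ZT14 samples were the 4 highest, both ZT2 samples were the lowest, and neither group overlapped the rest. The mean was 50.5 ± 2.18 rpbp at ZT2 and 104.5 ± 10.3 rpbp at ZT10 (SD, n = 2), a 2.07-fold range of time-point means. The difference was 0.50 ± 0.10 on the log2 scale from ZT2 to ZT6 (adjusted p = 0.0109, limma) and 0.53 ± 0.10 from ZT6 to ZT10 (adjusted p = 0.0818, limma). From ZT22 to ZT2 the level fell by 0.68 ± 0.10 (adjusted p = 0.0175, limma). F24 was 0.698 (permutation p = 0.00467, adjusted p = 0.0626), with a phase of 13.05 hr and an amplitude of 2.28. Without both ZT2 samples the call was lost, with F24 of 0.525 (permutation p = 0.081), an amplitude of 1.60 and a phase of 12.7 hr.

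CAR and PXR share a set of target genes for foreign compound metabolism, and these were low at ZT2 too. Of 14 expressed genes of the PXR and CAR list, 13 (92.9%) had their lowest mean at ZT2, compared with 21.8% of all expressed genes and 6 of the 10 hepatocyte markers. From ZT2 to ZT6, 10 of the 14 rose in limma, with a median log2 difference of 1.28. Of all genes 10.5% rose, with a median of -0.0233 over all. None of the 14 fell, compared with 876 of all 10198 genes. Of the 14, 5 were called rhythmic, compared with 19.0% of all expressed genes, and 2 without both ZT2 samples, compared with 15.1%. By the adjusted permutation p, 0 of the 14 were called, compared with 5.02%. The order and the step at ZT2 cannot be given without those samples. *Slco1a4*, a transporter of organic anions, had means of 8.80 rpbp at ZT2 and 70.3 rpbp at ZT6, a log2 difference of 2.86 ± 0.23 (adjusted p = 2.69e-04, limma). *Cyp2c37*, a cytochrome P450, had means of 193 rpbp at ZT2 and 774 rpbp at ZT14. *Sult1a1*, a sulfotransferase, had 160.2 rpbp at ZT2 and 465.5 rpbp at ZT18. *Cyp3a11*, the classic PXR target and the most abundant of the list with a mean of 3994 rpbp, had 3072 rpbp at ZT2 and 4972 rpbp at ZT6, and its F24 of 0.428 missed the limit (permutation p = 0.0892). Whether the receptors bear on these levels was not tested.

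*Rxra* encodes the shared partner of CAR, PXR, LXRα and TRβ, and its mRNA (chr2:27531960-27618477, plus strand) was not called in either test. Replicate 1 had 332, 266, 289, 287, 264 and 220.2 rpbp from ZT2 to ZT22, and replicate 2 had 317, 283, 267, 275, 246 and 287 rpbp. Both ZT2 samples were the highest of the 12, and the ZT22 samples lay far apart, with a mean of 254 ± 47.1 rpbp (SD, n = 2). F24 was 0.216 (permutation p = 0.349), the amplitude 1.51, and the adjusted p of the limma F-test 0.284. With both ZT2 samples left out, F24 was 0.287 (permutation p = 0.306) and the adjusted p of the F-test was 0.777. The ratio of *Nr1i3* to *Rxra* signal was 0.1655 and 0.173 at ZT2 and between 0.426 and 0.909 in the other samples. The ratio of *Nr1i2* to *Rxra* signal was 0.157 and 0.155 at ZT2 and between 0.262 and 0.419 in the other samples. In both ratios the ZT2 samples lay below all others, which follows from *Rxra* being highest and *Nr1i3* and *Nr1i2* lowest there. The ratios of *Nr1h3*, *Hnf4a*, *Nr5a2* and *Thrb* to *Rxra* were also lowest in both ZT2 samples, and those of *Esrra* and *Nr2f2* were not. The *Nr1i3* signal includes the bases shared with *Tomm40l*.

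*Nr1h3* encodes LXRα, and its mRNA (chr2:91024218-91042991, minus strand) varied least of the 9 by its coefficient of variation (CV, the SD over the mean). Replicate 1 had 125, 111, 126, 124, 129 and 138 rpbp from ZT2 to ZT22, and replicate 2 had 128, 118, 128, 123, 117 and 136 rpbp. The values varied with a CV of 6.08%, compared with 7.855% for *Hnf4a*, the next lowest, and both ZT22 samples were the highest. F24 was 0.284 (permutation p = 0.226), and the adjusted p of the limma F-test 0.331. The amplitude of 1.245 was close to the 1.243 of *Hnf4a*, the lowest of the 9. With both ZT2 samples left out, F24 was 0.283 (permutation p = 0.313) and the adjusted p of the F-test was 0.391. Of 11 expressed LXR target genes, 3 were rhythmic (19.0% of all genes), and 7 without both ZT2 samples (15.1% of all). The 3 were *Abcg5* and *Abcg8*, which export sterols into bile, and *Cyp7a1*, the rate-limiting enzyme of bile acid synthesis. Of these, *Abcg8* and *Cyp7a1* remained by the adjusted permutation p, 2 of the 11 (5.02% of all genes). *Cyp7a1* had means of 28.5 rpbp at ZT2 and 142 rpbp at ZT10. *Scd1*, a fatty acid desaturase and the most abundant of the list, had 704.5 rpbp at ZT2 and 22850 rpbp at ZT6, but its F24 was 0.325 (permutation p = 0.18).

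*Hnf4a* (chr2:163332544-163398646, plus strand) was the most abundant member and moved little. Replicate 1 had 425, 440.2, 514, 516, 485 and 448 rpbp from ZT2 to ZT22, and replicate 2 had 453, 444, 499, 528, 431 and 503 rpbp. The ZT14 samples were the 2 highest of the 12, a ZT2 and a ZT18 sample were the lowest, and the samples of ZT18 and of ZT22 lay far apart. F24 was 0.499 (permutation p = 0.0575) with a phase of 13.5 hr, and the amplitude was 1.243, below the limit of 1.5. The adjusted p of the limma F-test was 0.274. With both ZT2 samples left out, F24 was 0.395 (permutation p = 0.181) and the adjusted p of the F-test was 0.418. The series differed in this gene, with F24 of 0.946 in replicate 1 alone (exact permutation p = 0.05) and 0.196 in replicate 2 alone (exact permutation p = 0.733). Without the ZT18 sample of replicate 2, F24 was 0.750 (permutation p = 0.0121), again with an amplitude under the limit. Of 15 HNF4α target genes 1 was rhythmic (19.0% of all genes), and 0 without both ZT2 samples (15.1% of all). The gene was *F12*, coagulation factor XII, with means of 519.7 rpbp at ZT2 and 369.5 rpbp at ZT10. By the adjusted permutation p, 0 of the 15 were rhythmic (5.02% of all genes). *Apoa2*, an apolipoprotein and the most abundant of the list, had F24 of 0.0767 (permutation p = 0.682).

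*Nr5a2* encodes LRH-1, and its mRNA (chr1:138740161-138857004, minus strand) was low at ZT2 with no 24 hr rhythm. Replicate 1 had 31.5, 48.5, 36.3, 39.5, 41.3 and 46.5 rpbp from ZT2 to ZT22, and replicate 2 had 33.7, 43.4, 37.9, 44.9, 45.8 and 44.6 rpbp. Both ZT2 samples were the lowest, the ZT10 samples came next, and the other 8 lay above them. The mean was 32.6 ± 1.53 rpbp at ZT2 and 45.9 ± 3.59 rpbp at ZT6 (SD, n = 2), a rise of 0.48 ± 0.11 (SE) on the log2 scale (adjusted p = 0.0164, limma). Across the 6 time points the limma F-test missed the threshold (adjusted p = 0.0531), with 0.0591 to 0.194 when any 1 of the 12 samples was left out and 0.338 without both ZT2 samples. F24 was 0.0929 (permutation p = 0.631), and the time-point means were high at both ZT6 and ZT22. Without both ZT2 samples F24 was 0.419 (permutation p = 0.161). Of 9 LRH-1 target genes 7 were rhythmic (19.0% of all genes), and 6 without both ZT2 samples (15.1% of all). The 7 include *Cyp7a1* and *Plk3*, a kinase, with 59.8 rpbp at ZT10 and 12.2 rpbp at ZT22. Only 3 of the 9 were rhythmic by the adjusted permutation p (5.02% of all genes). *Cyp8b1*, a sterol hydroxylase and the most abundant of the list, had F24 of 0.3345 (permutation p = 0.163). A total of 3 genes of this list, *Cyp7a1*, *Abcg5* and *Abcg8*, are also in the LXR list.

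*Esrra* encodes ERRα, and its mRNA (chr19:6985467-6996303, minus strand) was high from ZT6 to ZT14 and low at ZT22. Replicate 1 had 15.2, 19.4, 20.1, 17.2, 15.4 and 13.0 rpbp from ZT2 to ZT22, and replicate 2 had 17.2, 20.1, 18.8, 19.8, 16.4 and 14.1 rpbp. Both ZT22 samples were the lowest of the 12, and the ZT6 and ZT10 samples lay among the 5 highest. F24 was 0.825, the highest of the 9 (permutation p = 0.00108, adjusted p = 0.0311), with a phase of 9.42 hr. The phases of the replicate series alone, 9.33 and 9.545 hr, were 0.216 hr apart. The amplitude of 1.55 was just above the limit of 1.5, and 1.46 when taken from time-point means, which is below it. Without the ZT22 sample of replicate 1 the amplitude was 1.43 and the call was lost, at F24 of 0.796. The limma F-test had an adjusted p of 0.0473, and between 0.0514 and 0.124 when any 1 of the 12 samples was left out. It was 0.0526 with the replicate number as a block. Without both ZT2 samples *Esrra* was still rhythmic, with F24 of 0.847 (permutation p = 0.00261), whereas the adjusted p of the F-test was 0.0803. The exons of *Esrra* share 73 bases, 2.88% of their length, with those of *Trmt112*. Of 11 expressed ERRα target genes 3 were rhythmic (19.0% of all genes), and 3 without both ZT2 samples (15.1% of all). The first 3 were *Esrra* itself, *Pdk4*, a kinase that inhibits pyruvate oxidation, with 5.64 rpbp at ZT2 and 30.5 rpbp at ZT22, and *Cs*, citrate synthase, with 159 rpbp at ZT6 and 106 rpbp at ZT14. By the adjusted permutation p, 1 of the 11 remained, *Esrra* itself (5.02% of all genes). *Atp5b*, a subunit of ATP synthase and the most abundant of the list, reached 1701 rpbp at ZT10 from 1392 rpbp at ZT2, with an amplitude of 1.25 that is under the limit.

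*Thrb* encodes TRβ, and its mRNA (chr14:18493474-18870602, plus strand) had the widest spread between replicates among the 9. Replicate 1 had 10.4, 16.2, 14.7, 15.2, 16.04 and 18.4 rpbp from ZT2 to ZT22, and replicate 2 had 15.4, 14.8, 15.0, 16.4, 25.5 and 16.6 rpbp. The highest value was the ZT18 sample of replicate 2 and the lowest the ZT2 sample of replicate 1, and their partners lay among the other samples. The CV between replicates was 19.6%, compared with a median of 10.8% over expressed genes and 3.24% to 8.001% for the other members. F24 was 0.325 (permutation p = 0.13), the amplitude 2.44, and the adjusted p of the limma F-test 0.309. With both ZT2 samples left out, F24 was 0.338 (permutation p = 0.151) and the adjusted p of the F-test was 0.463. In replicate 2 alone F24 was 0.578 with the smallest p of 720 orders (exact permutation p = 0.0167), and in replicate 1 alone it was 0.161 (exact permutation p = 0.85). Of 7 expressed thyroid hormone target genes 2 were rhythmic (19.0% of all genes), and 2 without both ZT2 samples (15.1% of all). The first 2 were *Thrsp*, a regulator of lipogenesis and the most abundant of the list, with means of 168 rpbp at ZT2 and 5188 rpbp at ZT10, and *Cpt1a*, which brings fatty acids into mitochondria, with 198 rpbp at ZT2 and 342 rpbp at ZT10. Both remained by the adjusted permutation p (5.02% of all genes).

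*Nr2f2* encodes COUP-TFII, and its mRNA (chr7:77496832-77511621, minus strand) was highest at ZT6 and lowest at ZT10. Replicate 1 had 25.9, 28.7, 17.8, 19.96, 19.8 and 26.6 rpbp from ZT2 to ZT22, and replicate 2 had 27.0, 32.1, 15.0, 17.9, 22.5 and 24.6 rpbp. The 6 samples of ZT22, ZT2 and ZT6 lay between 24.6 and 32.1 rpbp, above the 15.0 to 22.5 rpbp of ZT10, ZT14 and ZT18, with no overlap. The mean of 30.4 ± 2.40 rpbp at ZT6 was followed by 16.4 ± 1.92 rpbp at ZT10 (SD, n = 2), a fold of 0.539. On the log2 scale it fell by 0.85 ± 0.12 (SE) in that step (adjusted p = 0.034, limma), one of 11 genes (0.108%) that fell there. The call of this step was kept in 2 of the 12 fits that left out 1 sample, with adjusted p between 0.043 and 0.219. It was lost with the replicate number as a block (0.0731), with no minimum level (0.0835) and without both ZT2 samples (0.081). F24 was 0.642 (permutation p = 0.0153, adjusted p = 0.105), with a phase of 2.01 hr and an amplitude of 2.14. The phases of the replicate series alone were 2.00 and 2.01 hr. Without both ZT2 samples it was still rhythmic, with F24 of 0.688 (permutation p = 0.022). *Nr2f2* is prominent in endothelial and stromal cells, and of the 12 endothelial markers 1 was rhythmic (19.0% of all genes), *Tie1*, while their sum had F24 of 0.0951 (permutation p = 0.64). Of 6 expressed stellate and fibroblast markers 1 was rhythmic (19.0% of all genes), *Ngfr* (named after its values were seen), and the sum of all 11 markers of the list had F24 of 0.182 (permutation p = 0.41). By the adjusted permutation p *Ngfr* remained and *Tie1* did not (5.02% of all genes). Both sums lean on an abundant marker, *Clec4g* with a mean of 120.9 rpbp and *Dcn* with 174.6 rpbp. They thus say little on the other markers.

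**Figure D4:**
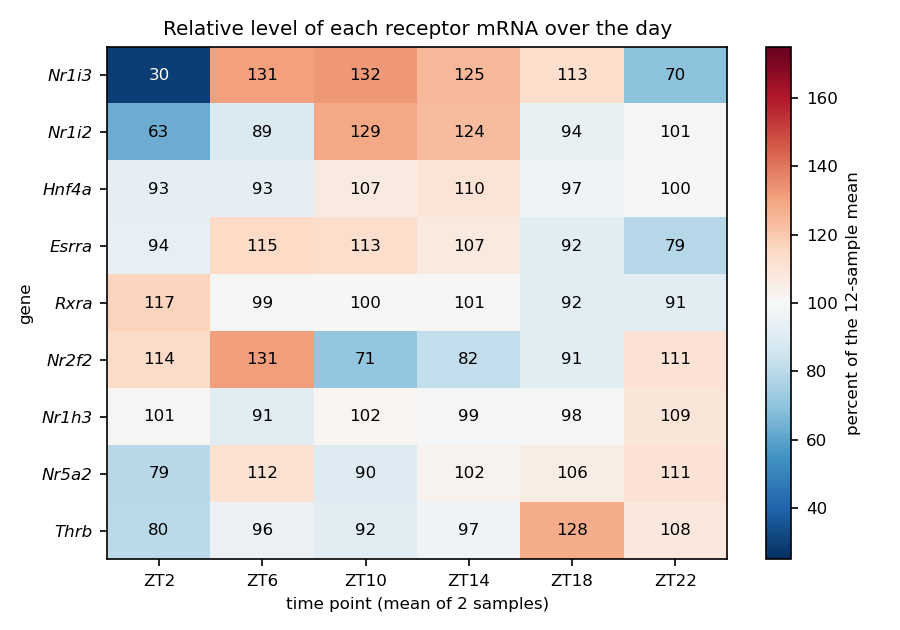
Mean of the 2 samples of each time point as a percent of the gene's mean over 12 samples (color scale, with the value printed in each cell), with genes in rows and time points in columns. *Nr1i3* stands at 29.5 percent and *Nr1i2* at 62.5 percent at ZT2, whereas *Nr2f2* is at 114 percent there and at 70.8 percent at ZT10.

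In the steps of 4 hr between neighbouring time points, 6 of the 54 tests on members passed the threshold. From ZT2 to ZT6, 3 of 9 members rose (*Nr1i3*, *Nr1i2* and *Nr5a2*), compared with 10.5% of all genes. None fell, compared with 876 of all 10198 genes. Of the 23 other expressed nuclear receptors, 9 rose and 2 fell in this step. From ZT6 to ZT10, 1 of 9 fell (*Nr2f2*), compared with 0.108%. From ZT22 to ZT2, 2 of 9 fell (*Nr1i3* and *Nr1i2*), compared with 1.02%. In the other 3 steps no member was called by limma. Of all 10198 genes, 58 were called from ZT10 to ZT14, 24 from ZT14 to ZT18 and 4 from ZT18 to ZT22. Members at an unadjusted p under 0.05 (limma) were 0 of 9, 1 and 1 in these steps, in that order. No other tool was run on the steps. Of the 6 calls, 5 involve the ZT2 samples. Leaving out 1 of the 12 samples at a time, both calls of *Nr1i3* were kept in all 12 fits, those of *Nr1i2* in 10 (ZT2 to ZT6, adjusted p up to 0.0731) and 9 (ZT22 to ZT2, up to 0.122), and that of *Nr5a2* in 9 (up to 0.114).

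The phases of the 4 rhythmic members differed. *Esrra* had its phase at 9.42 hr in the late day, *Nr1i3* at 12.0 hr and *Nr1i2* at 13.05 hr around lights off, and *Nr2f2* at 2.01 hr in the early day. The phases of *Nr1i3* and *Nr1i2* were 1.33 hr apart in replicate 1 and 0.885 hr apart in replicate 2, with *Nr1i3* earlier in both. With both ZT2 samples left out, the phase of *Nr1i3* was 10.6 hr, closer to the 9.49 hr of *Esrra* than to the 12.7 hr of *Nr1i2*, which was then not called. That phase of *Nr1i3* is from deposited values, which include the bases shared with *Tomm40l*. Over all 12 samples, the phases of *Nr1i2* and *Nr2f2* were 11 hr apart. A cosine fitted to log2(rpbp + 1) in limma gave a peak-to-trough difference of 1.74 ± 0.40 (SE) on the log2 scale for *Nr1i3*, 0.81 ± 0.17 for *Nr1i2* and 0.49 ± 0.09 for *Esrra*, all 3 past the threshold. For *Nr2f2* it was 0.69 ± 0.16 (adjusted p = 0.0515). The sum of the 10 hepatocyte markers, whose low value at ZT2 rests on *Alb*, had F24 of 0.564 (permutation p = 0.0192) and a phase of 14.5 hr. That of the 10 Kupffer cell markers had F24 of 0.402 (permutation p = 0.102) and a phase of 2.07 hr. Their part in the phases of the members was not tested.

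**Figure D5:**
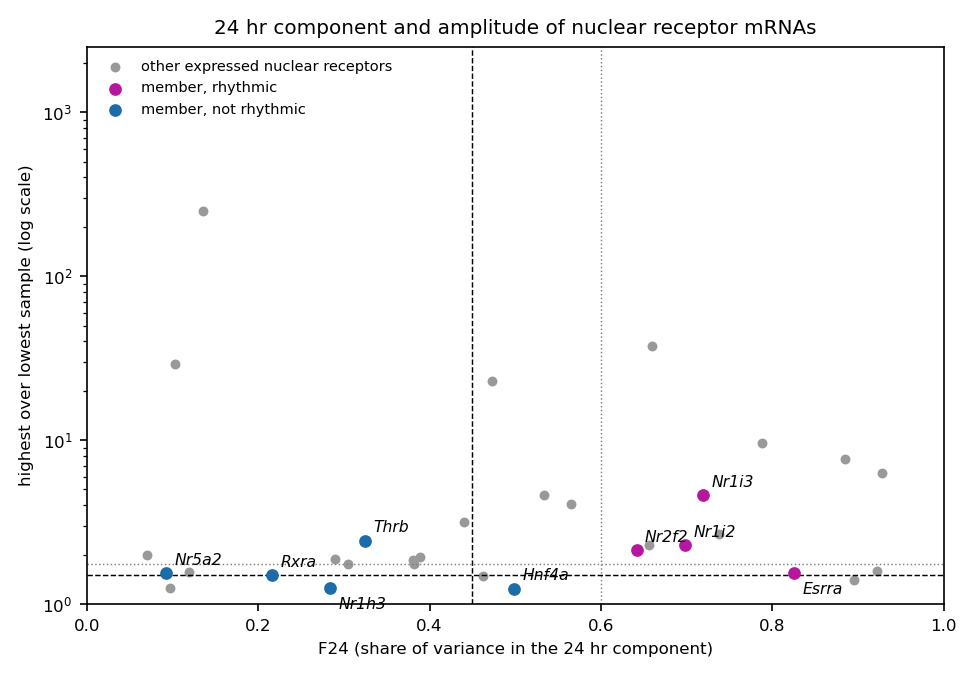
F24 (share of variance in the 24 hr component) against the amplitude (highest over lowest sample, log axis) of the 9 members (magenta, rhythmic; blue, not rhythmic) and of the other 23 expressed nuclear receptors (grey). Dashed lines mark the limits of 0.45 and 1.5, and dotted lines the higher limits of a strong rhythm. *Esrra* has the highest F24 of the members, 0.825, with an amplitude just above 1.5.

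For each rhythmic member, the 3 expressed genes with the smallest root mean square difference between z-scores over the 12 samples were sought among 8944 genes with a mean of at least 8 rpbp. For *Nr1i3* they were *Tomm40l* (0.207), which shares exons with it, *Sord*, sorbitol dehydrogenase (0.249), and *Ak3*, a mitochondrial adenylate kinase (0.275). For *Nr1i2* they were *Ttc19* (0.331), *Rhobtb1* (0.340) and *Mrpl15*, a mitochondrial ribosomal protein (0.367). For *Esrra* they were *Clec2d* (0.404), *Bach1*, a repressor that responds to heme (0.45), and *Rapgef1* (0.491). For *Nr2f2* they were *Zbtb22* (0.447), *Hgs* (0.451) and *Wdtc1* (0.486). Among the members themselves the most alike were *Nr1i2* and *Hnf4a*, with a difference of 0.659, and *Nr1i2* and *Nr1i3*, with 0.757.

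Among the 23 other expressed nuclear receptors, 9 were rhythmic (19.0% of all genes), 10 were rhythmic without both ZT2 samples (15.1% of all), and 14 were called by the limma F-test (17.6% of all). By the adjusted permutation p, 7 of the 23 were rhythmic (5.02% of all), and 0 of the 17 expressed coactivators and corepressors. *Nr1d1*, which encodes the clock repressor REV-ERBα, had means of 125 rpbp at ZT6 and 3.96 rpbp at ZT18. *Ppard*, the fatty acid receptor PPARδ, had 3.56 rpbp at ZT6 and 25.6 rpbp at ZT22. *Nr1d2* had 99.5 rpbp at ZT6 and 15.5 rpbp at ZT18. *Ppara*, the most abundant of this list with a mean of 143 rpbp, had F24 of 0.440 (permutation p = 0.0811). *Nr1d1*, *Ppard* and *Nr1d2* were named for having the largest amplitudes of the 9, which ranged from 1.59 to 37.3, whereas those of the 4 rhythmic members ranged from 1.55 to 4.60. Of 17 expressed coactivators and corepressors 1 was rhythmic (19.0% of all genes), *Nrip1*, a corepressor, with 7.68 rpbp at ZT2 and 13.0 rpbp at ZT22, and 2 were called by the limma F-test (17.6% of all). *Ncoa4*, the most abundant of that list, had a mean of 161 rpbp and an amplitude of 1.32.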

How the data were processed

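Poly(A) RNA from 12 liver samples was sequenced from 4 ug of total RNA with a TruSeq kit. Tools and build are from the labels and the study's methods: CASAVA 1.8 and TopHat, genome mm9, uniquely mapped sequences only. The deposited signal is the coverage the authors summed over the flattened exons of a gene, without regard to strand, divided by exon length (rpbp), for 10000000 sequences per sample. The authors also deposited an F24 fraction, a phase and a permutation p-value per gene, which hold their own rhythm analysis and were not used. The columns named ZT20 were taken as ZT22.

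Values were multiplied by 4. Signal is not a count, so no counting interval is given and sequencing depth is not derived from it. Genes were kept where a value exceeded 8 rpbp. Phase and F24 came from a cosine and a sine of 24 hr over the 12 values, p from 100000 random orders (seed 1), adjusted by Benjamini-Hochberg over 10198 genes. Time points were compared with limma on log2(rpbp + 1) over all expressed genes, with adjustment over all of them. Levels were compared with exact sign changes. The code was tested on simulated data. Alternatives were a minimum of 16 rpbp or none, a pseudocount of 0.1, median-of-ratios factors, F24 on a log scale, the adjusted p, a limma cosine, time-point amplitudes, the last time at 20 hr, a replicate block, and left-out samples or series.

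The members and lists were chosen with earlier results of these data known. Named genes are all members, the 3 nearest genes of each rhythmic member, and up to 4 genes of each list (the rhythmic ones of largest amplitude with a mean of at least 8 rpbp, and the most abundant). The values of 1 gene that this rule names are not reported here. All 9 members matched RefSeq, with 14 promoter windows. The tools were limma 3.58.1 in R 4.3.3, and scipy 1.17.1, numpy 2.4.6, matplotlib 3.10.9 and pandas 2.3.3 in Python 3.11.15.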

Additional observations from a re-analysis of the deposited data

How the results depend on the processing

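The count of 4 rhythmic members was 2 with the adjusted permutation p, and the count over all genes was then 512 instead of 1942. It was 828 with the limma cosine, where 3 members were called and *Nr2f2* was not. A single replicate series called 1 member and 286 to 369 genes, namely *Esrra* in replicate 1 and *Thrb* in replicate 2. Leaving out 1 sample at a time gave 3 to 4 members and 1591 to 1992 genes. Without both ZT2 samples, 3 members and 1543 genes were rhythmic, the limma F-test over time points called 2 members instead of 4 (4.60% of all genes instead of 17.6%), and of 36 tests of a step 0 passed in limma (5 at an unadjusted p under 0.05) instead of 6 of 54. Leaving out 1 sample at a time gave 2 to 6 steps, with 3 and 2 of them without the ZT2 sample of replicate 1 or 2, and 3 members in the F-test each time. The F-test of *Esrra* was also lost with median-of-ratios factors (adjusted p = 0.0663) and with no minimum (0.0827), where the fall of *Nr2f2* from ZT6 to ZT10 was lost too (0.0835), and *Nr5a2* passed with a minimum of 16 rpbp (0.039). No direction of a called step was reversed. In the order of levels, 0 of 8 pairs passed in a single series, where 6 samples allow an exact p no smaller than 0.0312. The replicate number as a block gave 4 rhythmic members, 1792 genes, 3 members in the F-test and 5 steps. The calls lost under it were the F-test of *Esrra* (adjusted p = 0.0526) and the fall of *Nr2f2* from ZT6 to ZT10 (0.0731). No label says whether the replicate number is a pairing, and correlations between samples cannot decide it. They were taken on deviations from time-point means, where the 2 samples of a time point are exact opposites. The correlation of same-numbered samples was -0.153 to 0.206 and over 0.1 in 2 of 15 pairs. Of the 12 samples, 6 correlated best with their own number, an outcome that the 2 samples of a time point always share. With 2 samples per time point, small changes of a member are at the limit of what these data can show. The causes of these differences were not tested.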
